A study of Mus musculus with 26 samples.

Results

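Frontal cortex of wild-type adolescent mice was described here at the level of RNA and of open chromatin, using the samples of the series whose labels give the genotype Wild-Type for these 2 assays. These were 10 of 26 samples: 7 RNA libraries and 3 samples of the assay for transposase-accessible chromatin (ATAC-seq), which finds DNA that a transposase can enter. Per the series' title and design text the mice were littermates of animals heterozygous for an Adnp frameshift. No treatment and no further allele was stated, and the 7 RNA libraries stand for 7 mice. Wild-type samples of a chromatin contact assay in the same series were not analysed here. Open chromatin was given as 1 merged peak list. Its name points to wild-type samples 1 and 3 and the ATAC-seq protocol speaks of 2 cortical tissues, so the list may rest on 2 of the 3 samples. The RNA came from whole tissue, so in these data fewer cells of a type and less RNA per cell cannot be told apart. No groups were compared and no p-value was computed, although Dixon's criterion was used below to call a library apart: n = 7 for every mean ± SD of RNA below, the errors cover the spread between mice, and the peak list has no replicate.

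Frontal cortex is built of glutamatergic projection neurons arranged in layers, of GABAergic interneurons, and of astrocytes, oligodendrocytes, microglia and vessels. Poly-A RNA from such tissue is a mixture of all of these. A nucleosome-poor stretch usually marks the promoter of an active gene, and ATAC-seq reads that stretch as a peak of insertions.

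The RNA tables held 55487 genes, of which 32336 had a count in at least 1 library and 19499 in all 7. Library totals ran from 32814841 counts (WT 5) to 48291175 (WT 4). Genes at 1 CPM or more (counts scaled to library size and composition by the TMM method of edgeR) numbered 14552 to 14938 in a library and 14845 by the mean. Genes of the mitochondrial genome took 4.68% to 5.64% of counts, with WT 4 at the top. A total of 16017 nuclear genes had enough counts in all 7 libraries to pass edgeR's filter on low counts and are called expressed below. This filter drops a gene that is near 0 in even 1 library: 11 of 11722 nuclear genes with a mean of 5 CPM or more were lost to it. The labels used here give no sex, and Ddx3y, a Y-linked RNA helicase gene, was counted in all 7 libraries at 57.8 to 78.1 CPM.

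Markers of cortical projection neurons were present in all 7 libraries, but at unequal levels, and markers of other brain regions were unequal too. The 8 excitatory neuron markers averaged 8.12 to 8.23 log2 CPM in WT 1, WT 2 and WT 3, and 7.71, 7.47 and 7.35 in WT 5, WT 6 and WT 7. In WT 4 the average was 5.94. WT 4 lay apart from the other 6, below them. Lists for single layers differed less or otherwise: upper layer markers (8 of 8 expressed) averaged 5.07 in WT 4 to 5.55 in WT 3 and layer 5 markers (7 of 7) 4.59 in WT 4 to 5.27 in WT 3, whereas layer 6 markers (8 of 8) were highest in WT 4, at 4.87, and lowest in WT 3, at 4.09. Inhibitory neuron markers (10 of 10) were also highest in WT 4, at 6.29 against 5.23 to 6.04 in the other 6, while the interneuron class list was lowest there, at 4.78 against 5.10 to 5.31.

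Single genes of the excitatory list were also lowest in WT 4. Slc17a7, the vesicular glutamate transporter of cortical neurons, ran from 455 to 1796 CPM around a median of 1275, and Nrgn, the calmodulin-binding postsynaptic protein neurogranin, from 485 to 2108 around 1630. In both genes WT 4 was the lowest library and WT 1 the highest. Neurod6, a transcription factor of the same neurons, was at 17.2 CPM in WT 4 and at 51.0 to 131 CPM in the other 6.

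Striatal markers went the other way. The 11 expressed members (of 12) averaged 3.46 log2 CPM in WT 3 and 3.67 in WT 1, 4.98 in WT 2, 5.43 to 5.93 in WT 5, WT 6 and WT 7, and 6.92 in WT 4. Drd2, the D2 dopamine receptor of indirect-pathway striatal neurons, was at 1.59 CPM in WT 3, 1.94 in WT 1, 14.4 in WT 2, 22.1 to 28.3 in WT 5, WT 6 and WT 7, and 63.7 in WT 4. Adora2a, the adenosine receptor of the same neurons, ran from 3.04 to 95.7 CPM around a median of 25.8. Penk, the enkephalin precursor, ran from 35.2 to 463 CPM around 162. WT 1 and WT 3 were the 2 lowest libraries and WT 4 the highest for these 3 genes.

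Markers of thalamus, basal forebrain, hippocampus and choroid plexus each had their own order of libraries. The 11 expressed thalamic markers (of 12) averaged 3.46 to 4.41 log2 CPM in 6 libraries and 5.86 in WT 7. The 3 expressed basal forebrain cholinergic markers (of 6) averaged 0.16 and 0.18 in WT 1 and WT 3, 1.08 in WT 2 and 2.76 to 4.17 in the rest. The 6 expressed hippocampal markers (of 8) averaged 2.58 and 2.34 in WT 1 and WT 2 and 3.52 to 4.47 in the other 5. The choroid plexus list (7 of 9 expressed) averaged 0.74 and 0.24 in WT 1 and WT 2 and 1.79 to 3.71 in the other 5. The part of these regional markers in the spread of other genes was not tested beyond leaving libraries out.

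**Figure D1:**
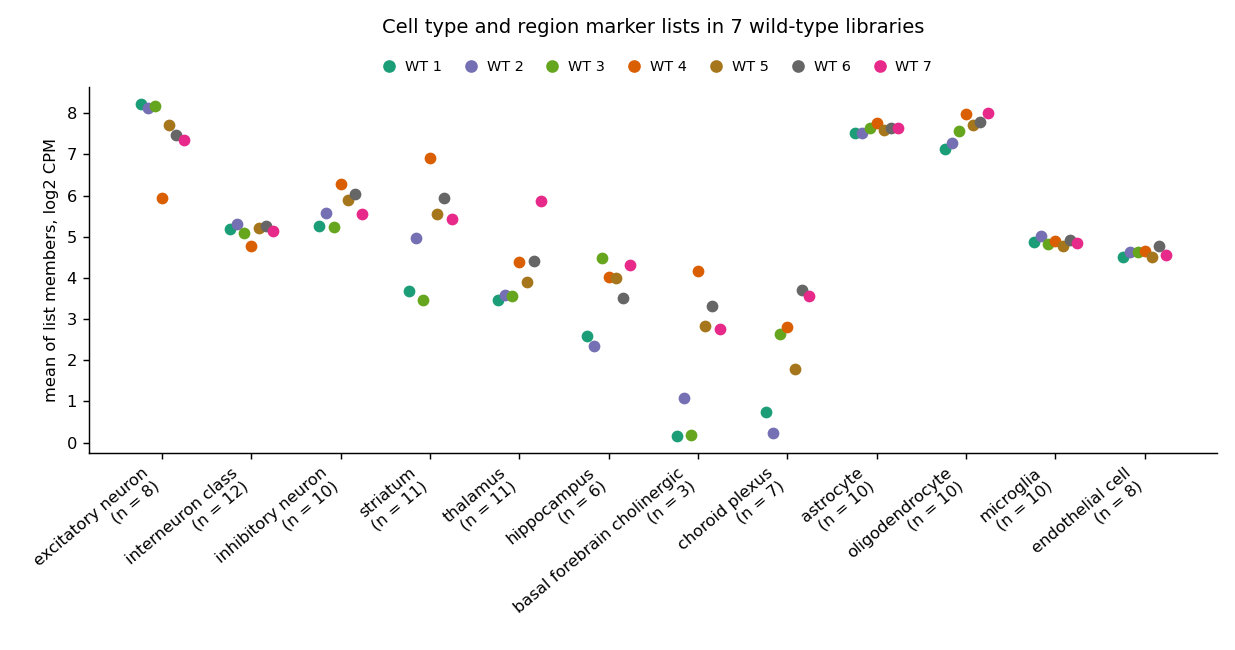
Mean log2 CPM of the expressed members of 12 marker lists (n, the number of members) in each of the 7 wild-type libraries, 1 point per library. Excitatory neuron markers are lowest in WT 4 (5.94), striatal markers are highest in WT 4 (6.92), thalamic markers are highest in WT 7 (5.86), and the microglia and endothelial points lie close together.

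Microglial, endothelial and astrocyte lists were more even than the excitatory and regional ones, and other vascular and border lists less so. Microglial markers averaged 4.78 to 5.01 log2 CPM (10 of 10 expressed), endothelial markers 4.52 to 4.77 (8 of 8) and astrocyte markers 7.51 to 7.76 (10 of 10). Mural cell markers (7 of 8) ran from 4.09 in WT 1 to 4.81 in WT 4, meningeal fibroblast markers (8 of 8) from 3.01 in WT 1 to 4.45 in WT 4, and border macrophage markers (5 of 5) from 0.28 in WT 2 to 0.98 in WT 4. The complement gene C1qc of microglia stood at 32.9 ± 1.04 CPM. Oligodendrocyte markers (10 of 10) spread further, from 7.13 in WT 1 to 8.002 in WT 7, and Cnp, a phosphodiesterase of myelin, ran from 262 CPM in WT 1 through a median of 406 to 489 in WT 7. The hemoglobin gene Hbb-bs ran from 63.1 to 203 CPM, with WT 5 at the top. Across the 50 gene lists drawn up for this description, the SD of the list mean over 7 libraries was lowest, at 0.03, for commonly used reference genes. It was highest, at 1.59, for the cholinergic list, which had 3 expressed members at low level. Between these it was 0.07 for microglia, 0.80 for excitatory neurons and 1.23 for the striatum.

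The series is built around Adnp, which encodes a zinc-finger homeodomain protein that recruits chromatin remodellers. In wild-type cortex Adnp (ENSMUSG00000051149, GRCm38 chromosome 2, 168180986 to 168207112, minus strand) was a gene of low level. Its lowest library stood at 5.54 CPM (WT 3), the median at 6.07 and the highest at 7.70 (WT 6), a mean of 6.42 ± 0.853 CPM, and its level per transcript length was 4.34 ± 0.564 TPM (counts scaled to exon length and to a common library total, so that genes can be compared). The CV (SD as a percentage of the mean) of Adnp was 13.3%, beside a median of 12.8% over expressed genes. Its partners in the ChAHP complex and its paralog were higher in TPM: the remodeller Chd4 stood at 96.1 TPM, the heterochromatin proteins Cbx5, Cbx3 and Cbx1 at 70.8, 39.97 and 37.1 TPM, and the paralog Adnp2 at 22.2 TPM. The median CV of the 6 genes on this list was 4.82%.

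By TPM, 1713 genes reached a mean of 100 TPM and 79 reached 1000 TPM, and the 100 most abundant nuclear genes took 18.3% of all TPM. At the top of the nuclear genes that the naming rule allows stood CT010467.1, at 11736 ± 2060 TPM, a locus on chromosome 17 (39846353 to 39848201) that overlaps the RefSeq ribosomal RNA pseudogene Rn18s-rs5. Bc1, a short noncoding RNA of neuronal dendrites, followed at 11248 ± 1113 TPM. Copies of such sequences elsewhere can share their reads, so both levels are uncertain.

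The coding genes at the top included genes of calcium signalling, secretion and translation. Nrgn stood at 3807 ± 1392 TPM and the calmodulin genes Calm2 and Calm3 at 3427 and 2397 TPM. Cpe, an enzyme that trims peptide hormones, stood at 2833 ± 177 TPM, and Psap, the precursor of the lysosomal saposins, at 2103 ± 54.3 TPM. Rplp1 (2818 TPM) and Eef1a1 (2654 TPM) serve the ribosome. The astrocyte-rich genes Cst3, Apoe and Sparcl1 stood at 2548, 2336 and 2238 TPM. The lead of Nrgn over Calm2 was smaller than the SD of Nrgn alone. Camk2n1, an inhibitor of the kinase CaMKII, stood at 2093 ± 631 TPM and, like Nrgn, had its lowest library in WT 4 (1210 CPM, against 2007 to 3353 in the other 6).

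The genes with the largest spread among those of at least 5 CPM included neuropeptide, thalamic, cholinergic and choroid plexus genes. Hcrt, the orexin precursor of the lateral hypothalamus, was at 0 to 0.0927 CPM in WT 1, WT 2 and WT 3, at 2.47 to 9.20 in WT 5, WT 6 and WT 7, and at 42.8 in WT 4. Avp, the vasopressin precursor, was at 0.202 to 0.649 CPM in WT 1, WT 2 and WT 3, at 18.8 to 27.2 in WT 5, WT 6 and WT 7, and at 80.5 in WT 4. WT 1, WT 2 and WT 3 were the 3 lowest libraries in both genes, which were named for their large spread.

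Pmch, the precursor of melanin-concentrating hormone, ran from 0 in WT 2 to 29.7 CPM in WT 4. Slc5a7, the choline transporter of cholinergic neurons, ran from 1.05 CPM in WT 3 through 10.5 to 35.3 in WT 4. The same 3 libraries (WT 1, WT 2 and WT 3) were the lowest for both. Isl1, Irs4, Arhgap36, Slc10a4, Slc35d3, Cartpt and Dlk1 completed this set with CVs from 107% to 115%, each with its highest value in WT 4. Hcrt, Pmch, Avp, Isl1, Irs4 and Slc10a4 did not pass the filter on low counts, because of the libraries near 0.

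WT 7 was the highest library for the thalamic genes of the set. Prkcd, a protein kinase C of thalamic relay neurons, was at 167 CPM in WT 7 and from 9.60 to 41.9 in the other 6, with a median of 22.9 over all 7. Synpo2 was at 54.6 CPM in WT 7 and at 4.68 to 13.1 in the rest, and Tnnt1, a troponin subunit, at 21.8 against 2.22 to 7.18. Ttr, the thyroxine carrier made by choroid plexus, divided the libraries differently: 4.13, 16.2, 19.95 and 39.0 CPM in WT 2, WT 5, WT 1 and WT 4, and 247, 347 and 379 in WT 3, WT 7 and WT 6. No library lay between 39.0 and 247 CPM.

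**Figure D2:**
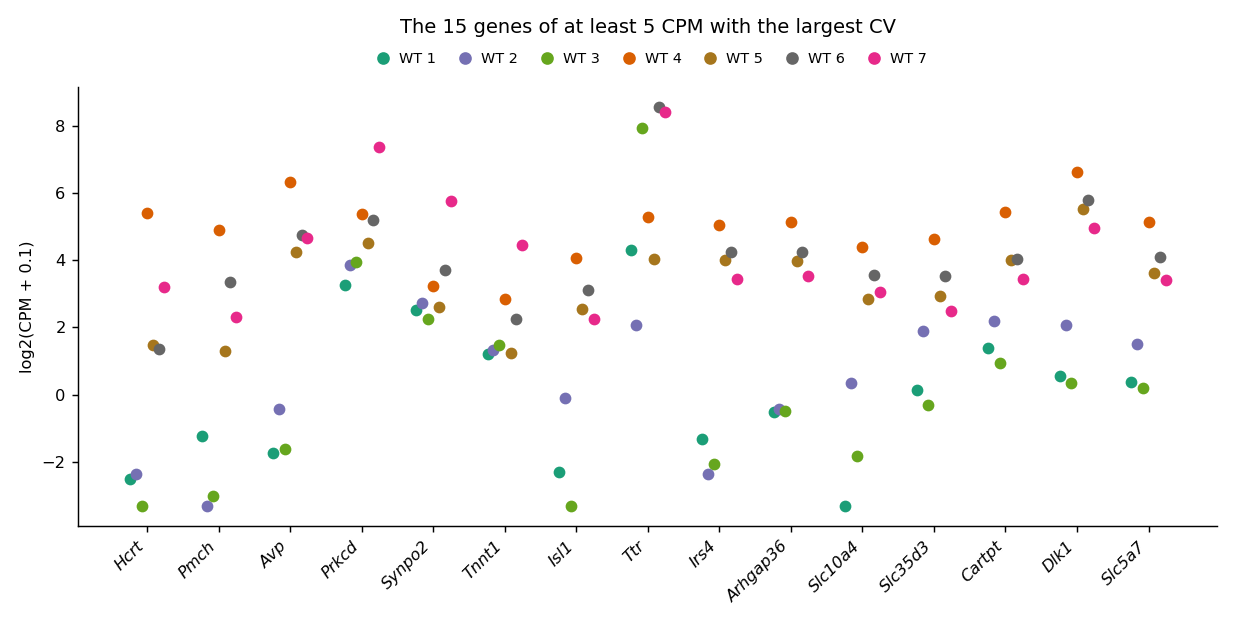
Values of log2(CPM + 0.1) in each of the 7 wild-type libraries for the 15 genes of at least 5 CPM with the largest CV, in falling order of CV. WT 4 is the highest library for Hcrt (42.8 CPM), Avp (80.5 CPM) and most others, WT 7 for Prkcd, Synpo2 and Tnnt1, and Ttr splits 3 high libraries from 4 low ones.

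The genes of lowest CV among those of at least 50 CPM are given as a description, since they were ranked on that value. Fam20b, a xylose kinase of proteoglycan synthesis, ran from 106.6 to 109.7 CPM around a median of 107.3, a CV of 0.933%. Rab5b, a small GTPase of early endosomes, followed at 162 ± 1.97 CPM and Dag1, dystroglycan, at 126 ± 1.58 CPM. Ywhae, a 14-3-3 protein, stood at 765 ± 11.2 CPM. Emc7, Kdm2a, U2af2, Dcaf7 and Ttyh1 followed with CVs of 1.47% to 1.83%.

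Actb, Gapdh and Rpl13a, which the labels name as the reference genes for PCR, had CVs of 5.54% to 7.74%. These lay at or below the lower quartile of 7.75% over expressed genes. The genes in the paragraph before were picked for low CV, so they are no standard for the reference genes. Actb, cytoplasmic actin, ran from 906.5 to 1059 CPM (CV 5.99%) and Gapdh, a glycolytic enzyme, from 1734 to 2021 CPM (CV 5.54%), with WT 7 highest in Gapdh. Rpl13a, a ribosomal protein gene, stood at 12.01 ± 0.929 CPM (CV 7.74%). Gapdh and Rpl13a have processed copies in the genome that can take reads, so their levels are uncertain. Over 15 commonly used reference genes the median CV was 5.99%, and Hprt (3.13%) was the lowest and Gusb (17.6%) the highest.

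Interneuron class markers fell into steps by TPM, with neighbours inside a step not separated by their spread. Sst, the somatostatin precursor, stood at 1017 ± 28.7 TPM and Cck, cholecystokinin, which projection neurons also express, at 928 ± 366 TPM. Sst was above Cck in 4 of 7 libraries, and the difference of 89.1 ± 344 TPM was smaller than its spread. Npy (365 ± 95.6 TPM) lay above Lamp5 (210.1 ± 81.7 TPM) in 7 of 7 libraries, and Lamp5 above Pvalb (175 ± 40.4 TPM) in 5 of 7.

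Pvalb, the calcium buffer of fast-spiking cells, lay above Vip (35.7 ± 15.7 TPM) in 7 of 7 libraries. Vip lay above Nos1 (22.4 ± 8.05 TPM) in 5 of 7, Nos1 above Crh (21.5 ± 4.75 TPM) in 4 of 7, and Crh above Reln (11.7 ± 2.09 TPM) in 7 of 7. Htr3a, Ndnf and Chodl closed the order at 9.18, 7.06 and 1.08 TPM. The class genes also differed in spread: Sst ran from 187 to 211 CPM (CV 3.66%), whereas Vip ran from 7.61 in WT 4 to 51.1 in WT 1 (CV 44.6%) around a median of 36.6. Of the GABA-synthesising enzymes, Gad1 had a CV of 20.3% and Gad2 of 50.2%, and Gad2 ran from 182 to 624 CPM.

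NMDA receptor genes kept a clear order at both ends. Grin1, the subunit present in all NMDA receptors, stood at 129.5 ± 18.6 TPM, above Grin2b (57.9 ± 16.3 TPM) in 7 of 7 libraries. Grin2b lay above Grin2c (37.6 ± 2.55 TPM) in 6 of 7, and Grin2c above Grin2a (33.6 ± 9.76 TPM) in 5 of 7, by 3.97 ± 8.75 TPM. Grin3a (16.2 TPM), Grin2d (12.8 TPM) and Grin3b (0.606 TPM) followed.

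Of the AMPA receptor genes, the auxiliary subunit Cnih2 stood at 645 ± 46.9 TPM and the pore subunits Gria1, Gria2, Gria3 and Gria4 at 251.5, 139.9, 81.8 and 54.5 TPM. The auxiliary subunits Cacng3, Cacng8, Cacng2 and Shisa9 stood at 152, 139.9, 78.2 and 47.1 TPM. Gria2 and Cacng8 differed by 0.0676 ± 10.5 TPM and were not told apart. Gria1 lay above Cacng3 in 7 of 7 libraries and Cacng2 above Gria4 in 7 of 7.

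GABA receptor genes were led by the B-type subunit Gabbr1 (400.2 ± 5.96 TPM), which had a CV of 2.86% in CPM. Its partner Gabbr2 stood at 209.7 ± 48.9 TPM. Of the A-type subunits, Gabra3 stood at 123 TPM and Gabrb2 at 89.2 TPM, and Gabrb2 lay above Gabrd in 6 of 7 libraries. The extrasynaptic subunits Gabrd and Gabra5 stood at 84.2 and 70.5 TPM, Gabra4, Gabrb1 and Gabra2 at 66.4, 38.6 and 33.5 TPM, and Gabrg1 and Gabrg3 at 18.3 and 11.7 TPM.

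Metabotropic and kainate glutamate receptors were led by the kainate subunit Grik5 (162 ± 16.9 TPM), above Grm3 (78.2 ± 11.3 TPM) in 7 of 7 libraries. Grm3 and Grm5 (73.7 ± 7.17 TPM) differed by 4.47 ± 12.7 TPM. Grik3, Grm2, Grm7, Grm4 and Grik4 fell between 48.5 and 16.1 TPM, and Grik2, Grik1 and Grm8 between 14.6 and 6.79 TPM. Of the Wnt ligands and receptors, the receptor Fzd3 (34.4 ± 4.76 TPM) and the ligand Wnt7b (31.4 ± 7.65 TPM) led, with Fzd3 higher in 5 of 7 libraries. Of 18 such genes, Wnt9a, Wnt4, Wnt10a, Fzd2, Wnt7a and the co-receptor Lrp6 lay between 19.2 and 14.6 TPM with each neighbour above the next in no more than 4 of 7 libraries. The remaining Wnt genes ran from Fzd1 at 13.4 TPM through Fzd4, Fzd9, Wnt2, Fzd7, Wnt5a, the co-receptor Lrp5, Fzd8 and Wnt2b to Fzd10 at 2.59 TPM.

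Activity-dependent genes varied between mice too. The 16 immediate early genes averaged 5.56 log2 CPM in WT 1 and 6.83 in WT 5, with the other 5 between 5.63 and 6.22, and their median CV was 37.3%. Arc, a synaptic capsid-like protein, ran from 143 CPM in WT 1 through 282 to 608 in WT 5, and Fos from 22.1 in WT 1 through 64.9 to 115 in WT 5. Egr2 ran from 8.04 in WT 1 to 42.9 in WT 5. WT 5 was the highest and WT 1 the lowest library for these 3 genes. The red cell list (5 of 6 expressed) had the same lowest and highest libraries, at 3.63 and 5.43, and its part in the result was not tested.

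Circadian clock genes had a median CV of 16.1% over 16 members, with Per2 at 24.9 to 57.2 CPM (CV 37.1%). The 11 glucocorticoid response genes had a median CV of 25.4%. Of these Zbtb16, a zinc-finger repressor, ran from 11.1 to 80.4 CPM and Plin4, a lipid droplet coat protein, from 1.599 to 13.3 CPM around a median of 2.41. By contrast, the median CV was 5.84% for 16 nuclear genes of the respiratory chain, 7.74% for 15 ribosomal protein genes, 8.63% for 12 subunits of the BAF remodeller and 8.29% for 10 microglial markers, beside 12.8% for all expressed genes.

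Over the 16017 expressed genes the CV between mice had a median of 12.8%, with quartiles at 7.75% and 22.8%. The median that counting alone would give was 3.58% if reads were independent and 5.06% if both mates of each fragment were counted. A CV above 50% was found for 463 genes (2.89%), and for 227 of them WT 4 was the highest library. WT 1 and WT 3 were the lowest for 137 and 129 of the 463. The common biological coefficient of variation of edgeR, which removes the counting noise of independent counts, was 0.193. Each mate could count here, so part of the counting noise can remain in it. It is a single value over genes and not a median of CVs. The first principal component of log2 CPM held 52.2% of the variance and placed WT 4 at 48.6 at one end and WT 1, WT 3 and WT 2 at -35.6, -27.0 and -22.6 at the other. Without WT 4 and WT 7, a pair picked after their marker levels were seen, the median CV was 10.8%.

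A library was counted as standing apart for a gene where its gap to the nearest other library, over the range of all 7, passed Dixon's 95% critical value for 7 samples. This held for 882 of 16017 expressed genes (5.51%), near the share of about 1 in 20 that chance passes. The genes were spread unevenly over libraries: WT 4 stood apart for 320 (88 above and 232 below the others), WT 7 for 166, WT 2 for 136, WT 1 for 124, WT 3 for 69, WT 5 for 41 and WT 6 for 26. In the gene lists a library stood apart for 4 of 8 excitatory neuron genes and 4 of 12 interneuron class genes, in all 8 cases WT 4, for 3 of 15 sodium and potassium channel genes and for 3 of 16 presynaptic release genes, in all 6 cases WT 4. It stood apart for 3 of 11 thalamic genes, none of them in WT 4, and for none of the 10 oligodendrocyte, 10 astrocyte or 10 microglial markers. None in a list of 10 is close to the 5.51% of all expressed genes, so it does not mark these lists as steadier. Without WT 4 the median CV of the excitatory list was 23.6% in place of 38.4%, a drop of more than 1.5 times, and that of the thalamic list without WT 7 was 41.6% in place of 71.4%. In each list the library left out was the one already seen to lie apart, so a lower CV follows in part from that choice.

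The open chromatin list held 19272 peaks with widths from 139 to 6364 bp and a median of 490 bp, and covered 10.4 Mb. Peaks within 1 kb of the start of a gene made up 49.0% (9448 peaks, median width 613 bp). A further 30.7% (5918 peaks, median 410 bp) lay in a gene more than 1 kb from any start, and 20.3% (3904 peaks, median 393 bp) lay outside genes. The list gives no height, so width is the single measure of a peak here. The 2 widest peaks, of 6364 and 5248 bp, lay on the mitochondrial genome, and the next, of 3646 bp on chromosome 17 (39843116 to 39846761), covered the start of CT010467.1.

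The widest peaks elsewhere lay at Ppp2r3d (2881 bp), at the start of Crlf2, a cytokine receptor subunit (1978 bp), and at 2410080I02Rik (1962 bp). The set also held peaks at Gm21738 (1945 bp, a gene at 0 TPM), Sp3 with its antisense gene Sp3os (1903 bp), Dleu2 (1878 bp) and Hcfc1 (1761 bp). Sp3, a zinc-finger activator, stood at 34.5 TPM and Hcfc1, a transcriptional coregulator, at 57.6 TPM. Counting ignored strand, so reads of Sp3 and Sp3os cannot be told apart. Mitochondrial genes were left out of what follows.

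The question set for the 2 data types together was how RNA levels differ between genes with and without a peak within 1 kb of the gene start. Of 55450 nuclear genes 12025 had such a peak (21.7%), and of the expressed genes 9935 of 16017, 62.0%. Among genes that were not expressed the share was 5.30% (2090 of 39433), and 1202 of these 2090 shared their peak with an expressed gene.

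Genes with a peak had a median of 16.3 ± 0.416 TPM over the 7 libraries, and genes without one had a median of 0 TPM in each library. On the log2(TPM + 0.1) scale the medians differed by 7.35 ± 0.04, a size set by the pseudocount because the lower median is 0. Among expressed genes the medians were 22.9 ± 0.414 TPM with a peak and 6.17 ± 0.439 TPM without, a difference of 1.88 ± 0.09 on the log2 scale. This difference ran from 1.75 in WT 4 to 2.01 in WT 1. The 2 distributions overlapped: the middle 80% of expressed genes ran from 3.23 to 130 TPM with a peak and from 1.03 to 63.8 TPM without one, and 381 genes without a peak reached 100 TPM. Protein coding genes had a peak in 65.2% of expressed cases (95% Wilson interval 64.4% to 65.99%) and long noncoding RNA genes in 56.0% (52.6% to 59.4%). These intervals and those below cover counting error only. The class of a gene was taken from RefSeq by its symbol, which left some expressed genes in neither class. Coding and noncoding genes were not compared at equal level.

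The share of genes with a promoter peak rose along the lower part of the range of levels and was flat above it. In the lowest decile of expressed genes by TPM it was 28.9% (95% Wilson interval 26.7% to 31.2%), and in the fourth decile (6.12 to 10.3 TPM) it was 60.1% (57.6% to 62.4%). It was 73.4% in the sixth decile and 77.6% (75.5% to 79.6%) in the highest, with 78.9% in the ninth, so the 2 highest deciles had overlapping intervals. Over 4 classes of peak width the genes' median level went from 19.6 TPM in the narrowest, through 20.5 and 24.1 TPM, to 26.9 TPM in the widest.

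**Figure D3:**
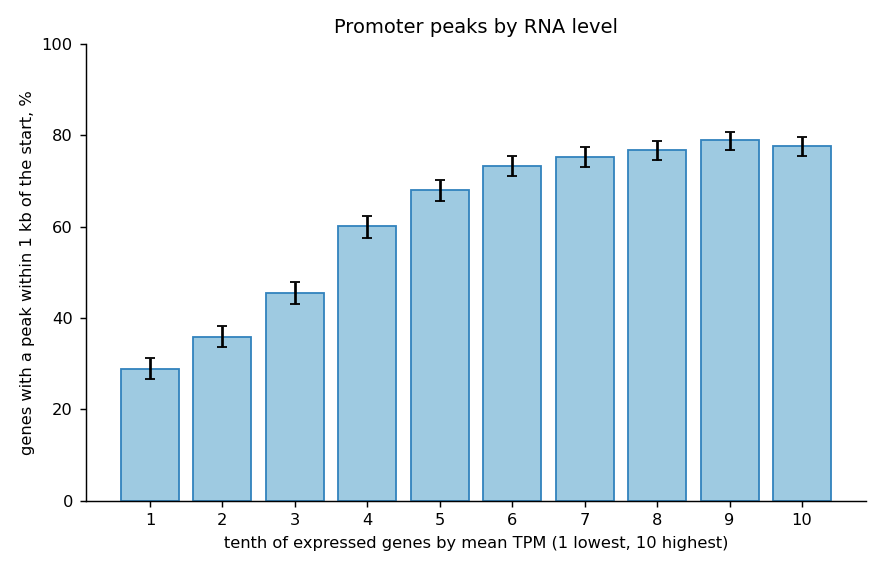
Percentage of expressed nuclear genes with an open chromatin peak within 1 kb of the gene start, by decile of mean TPM (bars, 1601 or 1602 genes each), with 95% Wilson intervals. The share climbs from 28.9% in the lowest decile to 73.4% in the sixth and stays between 75.3% and 78.9% in the 4 highest deciles.

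Genes with a promoter peak also had lower CVs between mice. Their median CV was 9.97%, beside 20.95% for expressed genes without a peak. Level moves with both measures, so the CV was also taken within deciles of TPM: the median was lower with a peak in 10 of 10 deciles, for example 27.9% against 31.9% in the lowest, 9.89% against 15.1% in the fifth and 8.37% against 11.1% in the highest. Without WT 4 and WT 7 it was lower in 10 of 10 as well, with overall medians of 8.40% and 17.7%. Of the 463 genes with a CV above 50%, 16.85% had a promoter peak, and of the 1322 genes with a CV under 5%, 86.0% did. These shares were not taken by level. Counting noise follows counts rather than TPM. Among expressed genes the log2 difference of medians with and without a peak was 2.41 in CPM and 1.88 in TPM. Deciles of TPM thus do not equalise counts, and the part of counting noise in the lower CV was not tested.

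**Figure D4:**
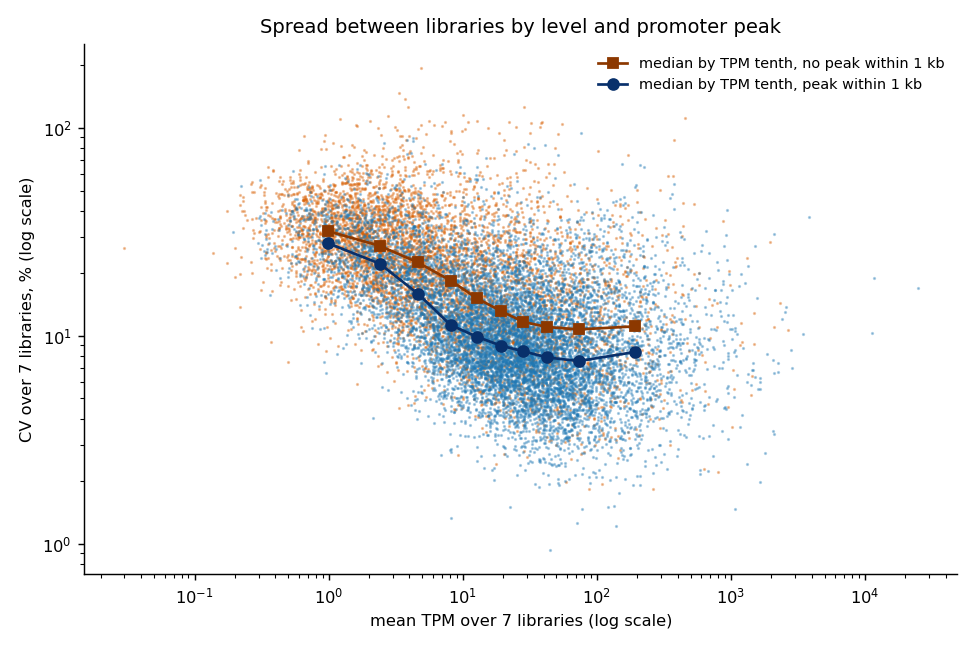
CV over the 7 libraries (%, log scale) against mean TPM (log scale) for 16017 expressed nuclear genes, blue with and orange without a peak within 1 kb of the gene start. Lines join the medians of the deciles by TPM, and the line of genes with a peak lies below the other in all 10 deciles, at 8.37% against 11.1% in the highest.

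The gene lists differed widely in how many members had a promoter peak, beside 62.0% of all expressed genes. All 16 nuclear respiratory chain genes had one, as did 15 of 16 circadian clock genes, 11 of 12 BAF subunits, 13 of 15 ribosomal protein genes, 14 of 17 tubulin and microtubule genes and 13 of 16 presynaptic release genes. Immediate early genes stood at 10 of 16, with peaks over the starts of Fos, Arc, Junb and Jun and none within 1 kb at Npas4, Egr2 or Bdnf.

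Several cell type lists stood lower. None of the 10 oligodendrocyte markers had one, although their median was 274 TPM and 77.6% of genes above 105.8 TPM did. The nearest peak to the start of Mog was 5066 bp away and to that of Cnp 3491 bp. Of the 10 microglial markers 1 had a peak and the other 9 had none. None of 8 endothelial markers and 1 of 12 interneuron class genes had one, the 1 being Cck (50 bp away). Sst, at 1017 TPM, lay 91437 bp from its nearest peak. Border macrophage (0 of 5) and choroid plexus (0 of 7) markers had medians of 2.08 and 4.33 TPM, in deciles where 36.0% and 45.4% of genes had a peak, and 2 of 3 expressed ependymal markers had one.

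The neuron and astrocyte lists lay between these. Of the excitatory markers 4 of 8 had a peak, among them Nrgn (33 bp), Camk2a, a kinase of the postsynapse (over the start), and Neurod2 (95 bp), while Slc17a7 missed the window at 1197 bp. Of the astrocyte markers 4 of 10 had one, including the glutamate transporter Slc1a2 and the glycolytic enzyme Aldoc, and not Gfap, the intermediate filament of astrocytes, or Aqp4, a water channel. The striatal list stood at 5 of 11, with peaks over the starts of Drd1, Ppp1r1b and Rgs9. With gene starts from RefSeq, where 61.9% of expressed genes had a peak, the oligodendrocyte, microglia, endothelial and interneuron lists had 0, 1, 0 and 1 members with a peak. With a peak counted within 1 kb of any exon end, where the share was 70.4%, they had 1, 2, 1 and 3. No peak in the list says nothing of weaker accessibility: the sources used here state neither the caller's threshold nor the depth, and the share of each cell type in the tissue was not measured.

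**Figure D5:**
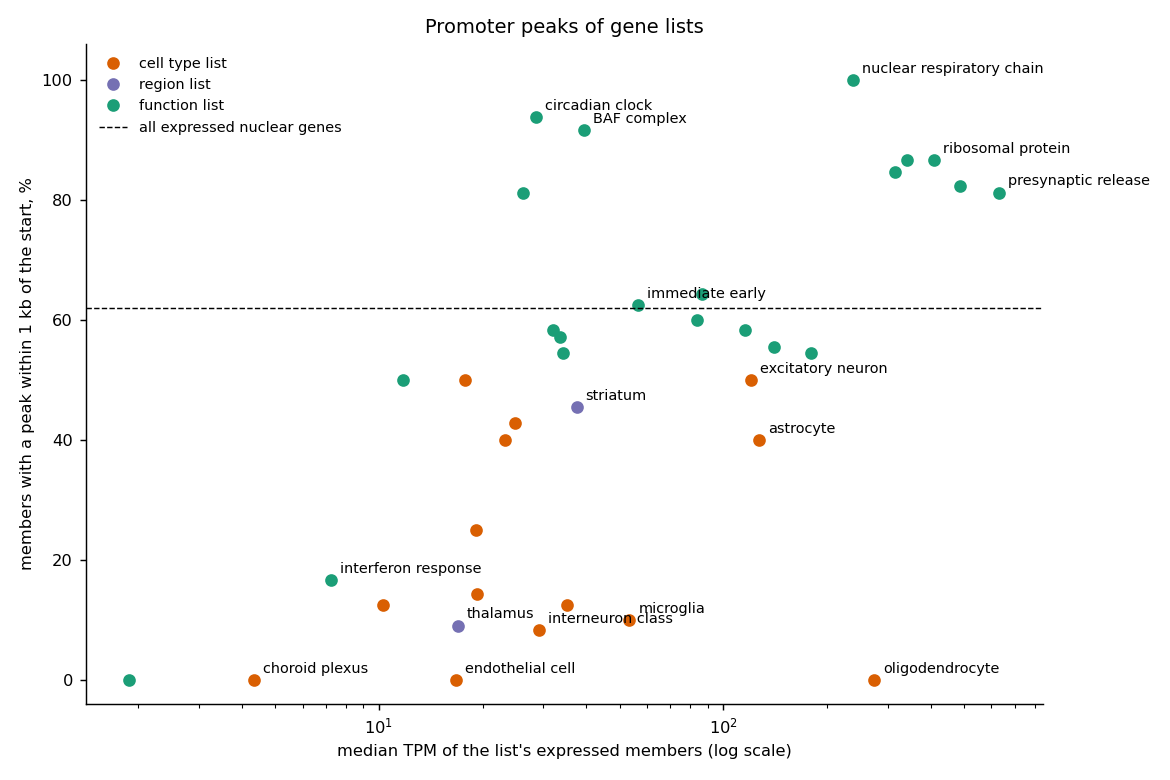
Percentage of the expressed members of each gene list with a peak within 1 kb of the gene start, against the median TPM of those members (log scale), for lists with at least 7 expressed members. The dashed line is the 62.0% of all expressed nuclear genes. The oligodendrocyte list lies at 0% with a median of 274 TPM, and the nuclear respiratory chain list at 100% with 238 TPM.

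The promoters of 4 genes show the range, 2 with a peak over the start and 2 of oligodendrocyte genes with none. Each line gives the 250 bases before the RefSeq start in GRCm38.p6, 5′ to 3′ on the gene's strand, with CpG dinucleotides in capitals. The positions are chr2:168207113-168207362 (minus strand) for Adnp, chr10:60277378-60277627 (plus) for Psap, chr3:31149670-31149919 (plus) for Cldn11, a tight junction protein of myelin, and chr17:37023399-37023648 (minus) for Mog, a myelin surface glycoprotein.
Adnp: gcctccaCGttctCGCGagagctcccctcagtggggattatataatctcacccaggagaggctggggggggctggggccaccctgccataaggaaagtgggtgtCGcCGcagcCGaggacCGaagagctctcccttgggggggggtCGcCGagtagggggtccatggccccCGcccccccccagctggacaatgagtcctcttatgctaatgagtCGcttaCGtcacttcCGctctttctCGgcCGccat
Psap: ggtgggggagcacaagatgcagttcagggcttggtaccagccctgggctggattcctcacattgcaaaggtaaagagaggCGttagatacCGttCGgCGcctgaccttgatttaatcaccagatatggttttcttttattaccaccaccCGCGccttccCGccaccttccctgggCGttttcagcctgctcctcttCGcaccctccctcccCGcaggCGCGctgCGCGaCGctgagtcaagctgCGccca
Cldn11: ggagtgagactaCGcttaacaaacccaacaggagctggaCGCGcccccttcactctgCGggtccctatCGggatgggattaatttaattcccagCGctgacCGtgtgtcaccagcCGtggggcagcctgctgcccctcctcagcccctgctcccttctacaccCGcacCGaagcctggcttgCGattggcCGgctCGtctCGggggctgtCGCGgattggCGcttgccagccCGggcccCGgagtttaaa
Mog: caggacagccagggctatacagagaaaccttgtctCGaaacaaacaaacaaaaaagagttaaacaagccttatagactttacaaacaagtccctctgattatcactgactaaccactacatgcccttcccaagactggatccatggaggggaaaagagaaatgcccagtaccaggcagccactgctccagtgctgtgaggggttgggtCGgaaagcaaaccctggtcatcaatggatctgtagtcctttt

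The table holds a second Psap promoter, not shown, which has 1 CpG, lies 6834 bp from the start in the count tables and is 1053 bp from its nearest peak. The stretches shown hold 15 CpG in Adnp, 16 in Psap, 19 in Cldn11 and 2 in Mog, beside a median of 6 over the 32851 promoters of the RefSeq table, of which 92.1% hold at least 1 (the CpG reads the same on both strands). The peak of 630 bp at Adnp (168206974 to 168207603) spans the whole stretch, and that at Psap covers its start. The nearest peak is 16349 bp from the start of Cldn11, whose RNA stood at 388 TPM, and 5066 bp from that of Mog, at 166 TPM. Of these 4 genes the one with the most CpG, Cldn11, had no peak within 1 kb. The 4 were picked after their values were seen, and CpG was not compared over gene sets.

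Exceptions to the relation of peak and level fell on both sides. The 10 most abundant genes without a peak within 1 kb ran from 2654 to 1190 TPM and included Eef1a1, Apoe, Eef1a2, Ptgds, Fth1, Gpm6a, Tmsb4x, Itm2c and Rpl36. For Eef1a1 and Rpl36 the start in the count tables is not the RefSeq start, which lies inside a peak. The other 8 had no peak within 1 kb of the RefSeq start either. Apoe, the lipid carrier of astrocytes, lay 16213 bp from its nearest peak, Eef1a2, the neuronal elongation factor, 2605 bp, and Fth1, the ferritin heavy chain, 1731 bp.

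At the other end, the 10 genes under 0.1 TPM with the widest promoter peaks were short RNA and histone genes, all at 0 counts: Mir707, Mir3960, Mir2861, Mir7238, Mir1938, Mir1900, Rnu3a, Snord2, Hist2h2bb and Hist2h3b. Their peaks were 1189 to 1683 bp wide. MicroRNA precursors, snoRNA and replication histone mRNA lack the poly-A tail that the libraries selected, so a count of 0 is no measure of their level. None of the 15 genes with the largest CV, from Hcrt to Slc5a7, had a peak within 1 kb, and 9 of the 10 steadiest did, Ttyh1 being the exception at 4767 bp. Both counts lie near the wider shares. Of expressed genes with a CV under 5%, 86.0% had a peak, and of those with a CV above 50%, 16.85% did. Some of the 15 did not pass the filter on low counts, and 5.30% of genes that did not pass had a peak.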

How the data were processed

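RNA-seq and ATAC-seq of wild-type mouse frontal cortex were used. The RNA files deposited by the authors hold unnormalised counts. Exons of Ensembl release 102 were counted with featureCounts 2.0.1, ignoring strand and with mates unpaired, per the file headers, so each mate can count. STAR, Trimmomatic and DESeq2 were named for RNA, and Bowtie2 2.4.4, SAMtools 1.9, MACS3, deepTools and edgeR for ATAC-seq, per the submitters' processing notes. The deposited peak list holds positions alone (mm10, the assembly GRCm38), with no score; the sources used here state no caller settings.

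Of 55487 gene IDs 55141 matched a symbol. Totals ran from 32814841 to 48291175 counts per library. Over expressed genes the median CV from counting alone would be 3.58% if reads were independent. It would be 5.06% if both mates of each fragment were counted. Counts were scaled by TMM and filtered with filterByExpr in edgeR 4.0.16 (R 4.3.3); DESeq2 1.42.0 gave alternative size factors. TPM used the deposited exon lengths and log2 values a pseudocount of 0.1 on TPM or a prior count of 2 on CPM. A gene start was the 5′ end of the gene in the count tables, and a promoter peak one within 1 kb of it. RefSeq (GRCm38.p6) starts matched 93.7% of expressed genes. Libraries were also compared in pairs by chi-square over genes, and no pair looked like a second copy. Dixon's rule and the CV were tested on simulated data. With 1 group there was no paired analysis and no test between groups.

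Named genes were Adnp; Actb, Gapdh and Rpl13a; the 15 nuclear genes highest in TPM; the 15 highest (5 CPM or more) and 10 lowest (50 CPM or more) in CV; in each of 50 lists the member highest in TPM and the 2 highest in CV; members of the receptor and interneuron lists; the 10 highest in TPM without a promoter peak; the 10 under 0.1 TPM with the widest one; and the 10 widest peaks. Predicted genes, pseudogenes and mitochondrial genes were left out of the ranked rules. Other list members named in the text were picked after their values were seen. The members and lists were chosen with earlier results of these data known. Alternatives were other scalings, filters, windows, pseudocounts and gene starts, and each library left out. Some genes that the naming rule selects are not reported here. Genotype comparisons, Hi-C and the other ATAC-seq samples were not analysed here.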

Additional observations from a re-analysis of the deposited data

Results flagged for a closer look

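Each value here is the gap between 1 library and its nearest neighbour as a share of the range over 7 libraries, and each exceeds Dixon's 95% critical value for 7 samples, which chance passes in about 1 of 20 groups. WT 4 lay above the others in the share of mitochondrial counts (0.570). WT 4 lay below them in the mean of the excitatory neuron (0.619), interneuron class (0.607) and sodium and potassium channel (0.570) lists. It also lay below them in the presynaptic release (0.596) and beta-catenin pathway (0.684) lists. WT 7 lay above the others in the thalamus list (0.6045) and WT 2 in the NMDA receptor list (0.647). These are 7 of 50 list means. The inhibitory neuron list, highest in WT 4 (6.29 log2 CPM against 5.23 to 6.04), did not pass the critical value and is not among them.

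The naming rule picks some genes by their CV in these same 7 libraries. Its share of flagged genes therefore cannot be set fairly against that of all genes. Of 224 expressed genes that it selects 19 had a library past the critical value (8.48%, beside 5.51% of all expressed genes). Among them, WT 4 was the low library for Nrgn (0.6155), Calm3 (0.5965), Sst (0.594), Vip (0.588), Pvalb (0.612), Cck (0.703), Grin2a (0.5905), Gabbr2 (0.631), Stx1a (0.594), the release protein syntaxin, Hlf (0.572), a clock-output factor, and Wnt9a (0.615). WT 7 was the high library for Gapdh (0.6125), Synpo2 (0.584), Ndufb8 (0.577), a complex I subunit, and Lef1 (0.763), a partner of beta-catenin. WT 3 was the high library for Fam20b (0.697) and Kdm2a (0.744). The cause was not tested.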

How the results depend on the processing

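No paired analysis was possible because wild-type samples alone were used and no groups were compared. A median CV or BCV counted as moved where it shifted by more than a jackknife error over the 7 values with 1 library left out, a share by its Wilson interval, and a difference by its SD over libraries. With 1 library left out at a time, genes at 1 CPM or more numbered 14783 to 14879, the median CV was 11.6% to 13.4%, the BCV 0.166 to 0.207, the difference of medians 7.35 to 7.36 over all genes and 1.859 to 1.903 among expressed genes, and the median CV 9.12% to 10.4% with a peak and 18.96% (without WT 4) to 21.5% without one. The median CV was 16.4% with no filter beyond a count in every library and 11.05% at 1 CPM in all 7, and the BCV was 0.250 with no filter. Over all genes the difference was 7.45 with a window of 500 bp, 7.20 with 2 kb, 7.58 with the start inside a peak, 7.51 with the wider 50% of peaks, 6.76 without predicted genes and pseudogenes, 7.72 in CPM, 4.11 with a pseudocount of 1, 10.67 with 0.01 and 1.88 among expressed genes. Among expressed genes it was 1.502 with the start inside a peak, 1.39 with the wider peaks, 1.62 without predicted genes, 1.74 with a pseudocount of 1 and 2.41 in CPM. The share of expressed genes with a peak was 59.7%, 64.0%, 49.9% and 45.9% with 500 bp, with 2 kb, with the start inside a peak and with the wider peaks. In the lowest decile it was 26.7%, 19.4% and 19.2%, and in the highest 75.1%, 62.9% and 59.6%, with 500 bp, the start inside and the wider peaks. Settings chosen after seeing the data gave a median CV of 10.8% without WT 4 and WT 7 (8.40% with a peak, 17.7% without), a difference of 7.66 (RefSeq starts) or 6.14 (protein coding) over all genes, and 1.68 or 1.65 among expressed genes, where every alternative was added later. The difference kept its sign in every setting listed. Counting noise limits the CV of low genes, and the single merged peak list has no replicate and no stated depth.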
